A study of Mus musculus with 12 samples.

Results

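The B lineage was followed through 9 of its genes in bone marrow cells enriched for CD71, the transferrin receptor of red cell precursors and other dividing cells. They are the transcription factor Pax5, the surrogate light chain genes Vpreb1 and Igll1 with their relative Vpreb3, the signalling chains Cd79a and Cd79b of the B cell receptor, the adaptors Blnk and Bank1, and Ms4a1, which encodes CD20. They were chosen by name, with earlier results of these data known, each as the probe sets whose single gene symbol is that gene. The shares of all genes given beside their counts are therefore a scale and no independent test of the set. All 9 were measured among 19935 genes, each by 1 probe set. Groups of 3 male mice on a C57BL/6 background, aged 10 to 12 weeks, formed 4 genotypes on 12 arrays. Those with a CD70 transgene were labelled Ifng-/- as well (CD70TG*Ifng-/-) or had intact Ifng (CD70TG, clone F13). Those without the transgene were labelled Ifng-/- (Ifng-/-) or wild type (WT). The study's design allows the effect of the transgene to be read with and without interferon-gamma.

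CD70 is the ligand of CD27, a costimulatory receptor of T cells, and interferon-gamma is a main product of the T cells so stimulated. In the CD70 transgenic mice known from the literature B cells carry the ligand, so the B lineage is both the carrier of the transgene and a tissue it can act on. The labels do not say which cells express it here, and for CD70TG*Ifng-/- they name no clone. B cells are made in the bone marrow. Pax5 commits a progenitor to the lineage, the surrogate light chain pairs with the first heavy chain in the pre-B cell receptor, and Cd79a and Cd79b carry the signal of that receptor and of the later B cell receptor to kinases and adaptors such as Blnk. Pax5, Blnk and Bank1 code for proteins inside the cell and not for receptors or surface molecules.

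Each deposited value is on the log2 scale and was centred on the median of its own gene over the 12 arrays, so levels cannot be compared between genes. The rounding of the values places all 9 measured erythroid markers (among them Gata1, Klf1 and Tfrc) in a class whose level before centring was 8 or more (log2), and 0 of the 9 B lineage genes. The lower class holds most probe sets and does not say how dim a gene was. In such bulk samples fewer B lineage cells in the marrow, less RNA per cell and a different carry-over of B lineage cells in the CD71 enrichment cannot be told apart. On the first principal component, with 39.3% of the variance, the 6 transgenic arrays lay between 6.39 and 21.1 and the others between -24.6 and 3.34, the last being Ifng-/- 2. The probe set of Ifng did not separate the Ifng-/- groups from the others (-0.10 ± 0.09 in Ifng-/- against WT, SE, n = 3 per group, limma adjusted p = 0.632) and is no check of the Ifng-/- labels. The Cd70 probe set did not pass in any comparison with a group without the transgene, though the groups did not overlap: it was 0.26 ± 0.12 higher in CD70TG against WT (adjusted p = 0.180), 0.39 ± 0.12 in CD70TG*Ifng-/- against Ifng-/- (adjusted p = 0.135) and 0.46 ± 0.12 in CD70TG*Ifng-/- against WT (adjusted p = 0.0756).

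Of the 9 genes, 7 (all but Cd79b and Ms4a1) had an entry in the RefSeq promoter table (GRCm38.p6). The 250 bases before the listed start of 5 of them are printed 5′ to 3′ on the gene's strand. These 5 were picked from the results described next. Cd79a and Vpreb3 passed the test of a transgene effect that differed with Ifng. Those calls were kept in 6 and 2 of the 12 fits that each left out 1 array. Bank1 fell in both Ifng genotypes. Of the neighbours Igll1 and Vpreb1, Igll1 passed in CD70TG against WT and Vpreb1 did not, and no test compared the 2 genes. For Vpreb3 and Bank1 the listed start lies inside the gene span given below. The Vpreb3 window falls wholly within that span and the Bank1 window partly. Capitals mark the letters of 4 motifs searched on both strands: CCCNNGGG (a strict form of the EBF1 core), ATTTGCAT (the octamer of POU factors), CAGCTG (an E-box) and GAGGAA (the core of PU.1 and Spi-B sites). Only these exact letters were searched, so a window without a mark may still hold a looser form of a site.
Cd79a (chr7:24897247-24897496, plus strand): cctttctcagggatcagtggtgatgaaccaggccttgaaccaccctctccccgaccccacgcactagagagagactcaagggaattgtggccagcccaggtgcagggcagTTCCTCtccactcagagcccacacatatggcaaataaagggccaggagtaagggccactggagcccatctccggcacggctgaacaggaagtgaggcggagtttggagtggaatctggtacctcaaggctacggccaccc
Vpreb3 (chr10:75948050-75948299, plus strand): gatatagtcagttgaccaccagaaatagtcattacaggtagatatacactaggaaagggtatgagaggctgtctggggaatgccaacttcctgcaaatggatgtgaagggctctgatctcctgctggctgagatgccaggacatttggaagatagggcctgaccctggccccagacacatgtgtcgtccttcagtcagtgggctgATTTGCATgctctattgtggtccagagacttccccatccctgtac
Igll1 (chr16:16863986-16864235, minus strand): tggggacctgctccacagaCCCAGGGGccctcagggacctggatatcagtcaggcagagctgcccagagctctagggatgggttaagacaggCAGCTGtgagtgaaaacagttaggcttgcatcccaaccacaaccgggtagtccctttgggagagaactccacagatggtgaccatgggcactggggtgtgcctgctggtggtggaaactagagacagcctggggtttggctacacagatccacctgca
Vpreb1 (chr16:16869256-16869505, minus strand): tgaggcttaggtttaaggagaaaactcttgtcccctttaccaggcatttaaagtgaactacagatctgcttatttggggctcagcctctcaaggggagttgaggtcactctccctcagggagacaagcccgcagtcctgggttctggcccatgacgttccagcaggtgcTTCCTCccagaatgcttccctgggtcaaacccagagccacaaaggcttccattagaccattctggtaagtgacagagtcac
Bank1 (chr3:136326067-136326316, minus strand): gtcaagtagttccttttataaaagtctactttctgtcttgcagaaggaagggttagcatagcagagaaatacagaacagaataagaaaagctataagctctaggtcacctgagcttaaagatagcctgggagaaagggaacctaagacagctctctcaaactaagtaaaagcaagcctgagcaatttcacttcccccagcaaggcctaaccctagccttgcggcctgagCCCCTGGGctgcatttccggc
The strict form of the EBF1 core stood in Bank1 and Igll1 and in 11.8% of all 32851 promoters of this length. The octamer stood in Vpreb3 and Blnk and in 1.60% of all promoters. The E-box stood in Igll1 (13% of all promoters) and the PU.1 and Spi-B core in Cd79a and Vpreb1 (23.2% of all promoters). No marked motif overlapped another in these 5 windows. Such matches describe letters and not bound sites.

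With Ifng intact, B lineage transcripts were lower in CD71-enriched cells of transgenic marrow. In CD70TG against WT, 8 of the 9 genes fell and 0 rose (limma, Benjamini-Hochberg adjustment over 19935 genes, threshold 0.05), beside 2.7% of all genes lower and 8.23% higher. The median change of the 9 genes was -0.86 on the log2 scale, against -0.02 for all genes. For the same 8 genes the 3 CD70TG arrays lay below all 3 WT arrays, which held for 13.5% of all genes. Vpreb1 was the exception.

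**Figure D1:**
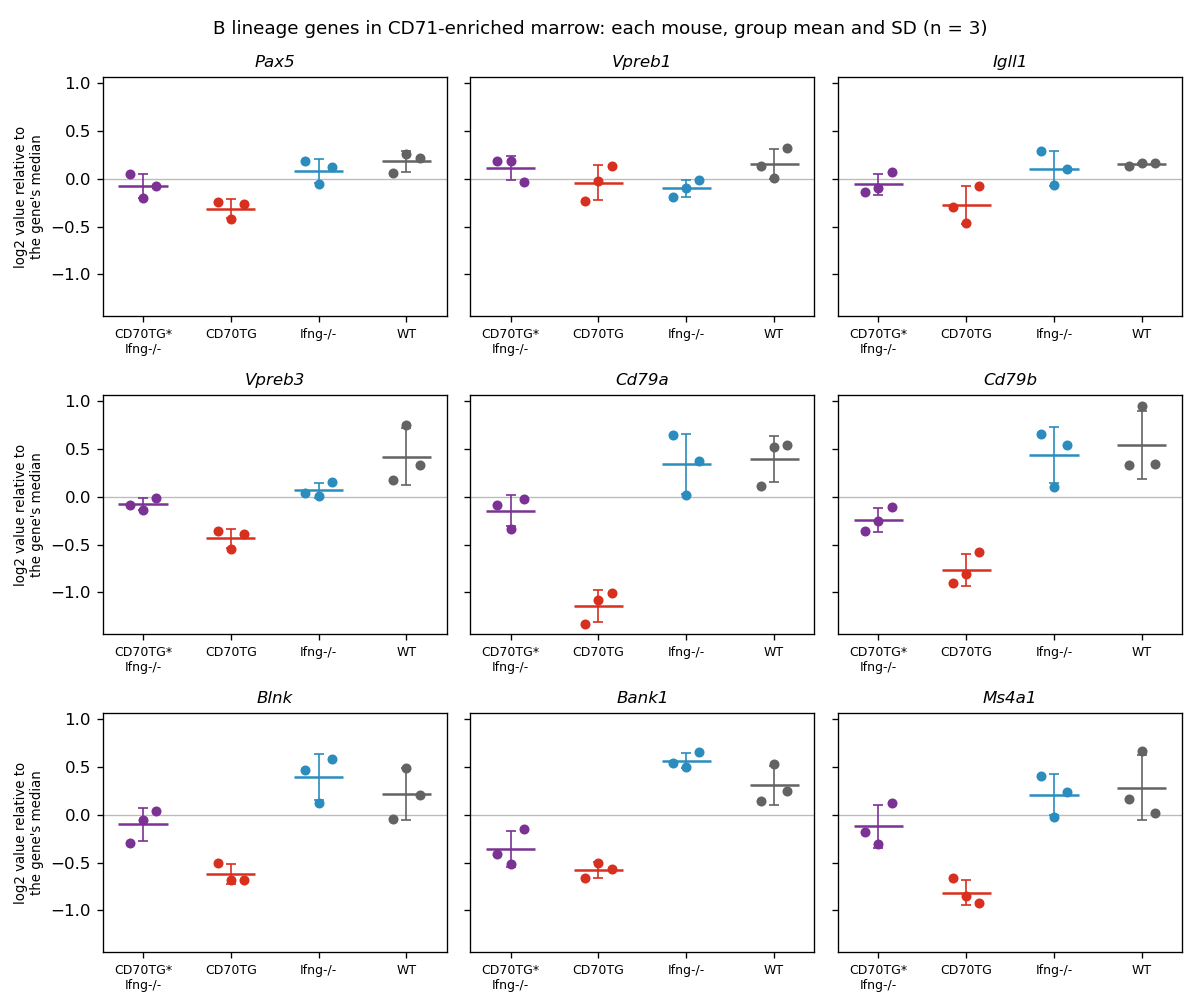
Value of each of the 9 B lineage genes in every mouse (log2, relative to the gene's median over 12 arrays), with the group mean (horizontal line) and SD (n = 3). CD70TG arrays are lowest for Cd79a, at -1.33 to -1.01, and the groups overlap for Vpreb1.

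Positions are those of GRCm38.p6. Pax5 (chr4:44524748-44710694), the transcription factor that holds cells in the B lineage, had values of -0.25, -0.43 and -0.26 in CD70TG, against 0.06, 0.26 and 0.22 in WT. The difference was -0.49 ± 0.09 (log2 ± SE, 3 mice per group, adjusted p = 0.0048), with no overlap between the groups.

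Of the surrogate light chain genes and their relative, Igll1 and Vpreb3 fell and Vpreb1 did not pass, and no test compared them with each other. Igll1 (chr16:16860671-16863985), which encodes lambda 5, had values of -0.29, -0.46 and -0.07 in CD70TG and a narrow range of 0.14, 0.17 and 0.16 in WT. It was 1.35-fold lower (-0.43 ± 0.11, adjusted p = 0.0208), the smallest of the 8 falls. That call was lost when any of WT 1, WT 2, WT 3, CD70TG 1 or CD70TG 2 was left out, with an adjusted p of up to 0.102. Vpreb1, which encodes the partner of lambda 5, lies 4415 bases from Igll1 (chr16:16868401-16869255). Its values were -0.23, -0.02 and 0.13 in CD70TG, against 0.13, 0.0075 and 0.32 in WT. The groups overlapped, and the difference of -0.19 ± 0.11 did not pass (95% interval -0.42 to 0.04, adjusted p = 0.270). Vpreb3 (chr10:75943024-75949657), which binds the newly made heavy chain within the cell, had values of -0.36, -0.55 and -0.39 in CD70TG, against 0.18, 0.76 and 0.33 in WT. It was 1.81-fold lower (-0.86 ± 0.12, adjusted p = 0.00063).

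The signalling chains of the receptor had the 2 largest falls. Cd79a (Ig-alpha, chr7:24897497-24901858) had values of -1.33, -1.08 and -1.01 in CD70TG, against 0.12, 0.52 and 0.54 in WT. It was 2.90-fold lower (-1.53 ± 0.15, adjusted p = 4.61e-05). Cd79b (Ig-beta, chr11:106311341-106314562), whose product pairs with that of Cd79a, had values of -0.90, -0.81 and -0.58 in CD70TG, against 0.34, 0.95 and 0.34 in WT, a 2.47-fold fall (-1.31 ± 0.16, adjusted p = 0.00031). For both genes every CD70TG array lay under -0.5 and every WT array above 0.

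Blnk (chr19:40928927-40994221), the adaptor that links the receptor's kinases to phospholipase C-gamma2, had values of -0.50, -0.69 and -0.68 in CD70TG, against -0.04, 0.50 and 0.21 in WT. It was 1.79-fold lower (-0.84 ± 0.14, adjusted p = 0.00236). Bank1 (chr3:136053363-136326141), a scaffold of B cell receptor signalling, had values of -0.67, -0.50 and -0.57 in CD70TG, against 0.14, 0.54 and 0.25 in WT, and was 1.85-fold lower (-0.89 ± 0.11, adjusted p = 0.000276). Ms4a1 (chr19:11249679-11266149), the gene of CD20 on later B cell stages, had values of -0.67, -0.85 and -0.92 in CD70TG, against 0.17, 0.67 and 0.02 in WT, and was 2.14-fold lower (-1.10 ± 0.16, adjusted p = 0.00095). The WT arrays were uneven: WT 2 was the highest of the 3 for 7 of the 9 genes and WT 1 the lowest for 7. Without WT 2 the 7 genes other than Igll1 and Vpreb1 passed. Over the 12 fits that each left out 1 array, Cd79a ran from -1.67 to -1.44.

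In CD70TG*Ifng-/- against Ifng-/-, Bank1 and Cd79b fell and 0 rose, beside 2.35% of all genes lower and 0.156% higher, and the median of the 9 was -0.33 against 0.04 for all genes. Bank1 had values of -0.41, -0.52 and -0.14 in CD70TG*Ifng-/-, against 0.55, 0.50 and 0.66 in Ifng-/-. It was 1.90-fold lower (-0.93 ± 0.11, SE, n = 3 per group, adjusted p = 0.000157), and the groups lay far apart. Cd79b had values of -0.36, -0.25 and -0.11 in CD70TG*Ifng-/-, against 0.66, 0.11 and 0.55 in Ifng-/- (-0.68 ± 0.16, adjusted p = 0.0453). The call of Cd79b was kept in 3 of the 12 fits that each left out 1 array (adjusted p from 0.00629 to 0.2). They were those without WT 2, CD70TG 3 or Ifng-/- 2.

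Cd79a and Blnk did not pass, though the groups did not overlap. Cd79a had values of -0.08, -0.33 and -0.02 in CD70TG*Ifng-/-, against 0.65, 0.02 and 0.37 in Ifng-/- (-0.49 ± 0.15, adjusted p = 0.148). Blnk had values of -0.29, -0.05 and 0.04 in CD70TG*Ifng-/-, against 0.47, 0.12 and 0.59 in Ifng-/- (-0.49 ± 0.14, adjusted p = 0.103). Ifng-/- 2 was the lowest Ifng-/- array for 8 of the 9 genes, and without it Cd79a (-0.65, adjusted p = 0.0164) and Blnk (-0.63, adjusted p = 0.0156) passed too, which gave 4 falls. Over all genes the 468 lower calls ran from 292 to 744 when 1 array was left out. The groups also did not overlap for Vpreb3, so that 5 of 9 genes lay wholly lower, as did 7.09% of all genes.

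The remaining genes did not pass. Ms4a1 had values of -0.18, -0.31 and 0.13 in CD70TG*Ifng-/-, against 0.41, -0.02 and 0.24 in Ifng-/- (-0.33 ± 0.16, adjusted p = 0.423). Vpreb3 had values of -0.08, -0.14 and -0.014 in CD70TG*Ifng-/-, against 0.04, 0.014 and 0.16 in Ifng-/- (-0.15 ± 0.12, adjusted p = 0.645). The 95% interval of the Vpreb3 difference ran from -0.40 to 0.10, and that of its fall with Ifng intact from -1.11 to -0.61. The test of the difference between the 2 effects is given below. Igll1 (-0.16 ± 0.11) and Pax5 (-0.16 ± 0.09) did not pass either, with adjusted p of 0.576 and 0.527. Vpreb1 had values of 0.19, 0.18 and -0.03 in CD70TG*Ifng-/-, against -0.19, -0.10 and -0.0075 in Ifng-/-, the one gene of the 9 with a positive difference (0.21 ± 0.11, adjusted p = 0.453).

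**Figure D2:**
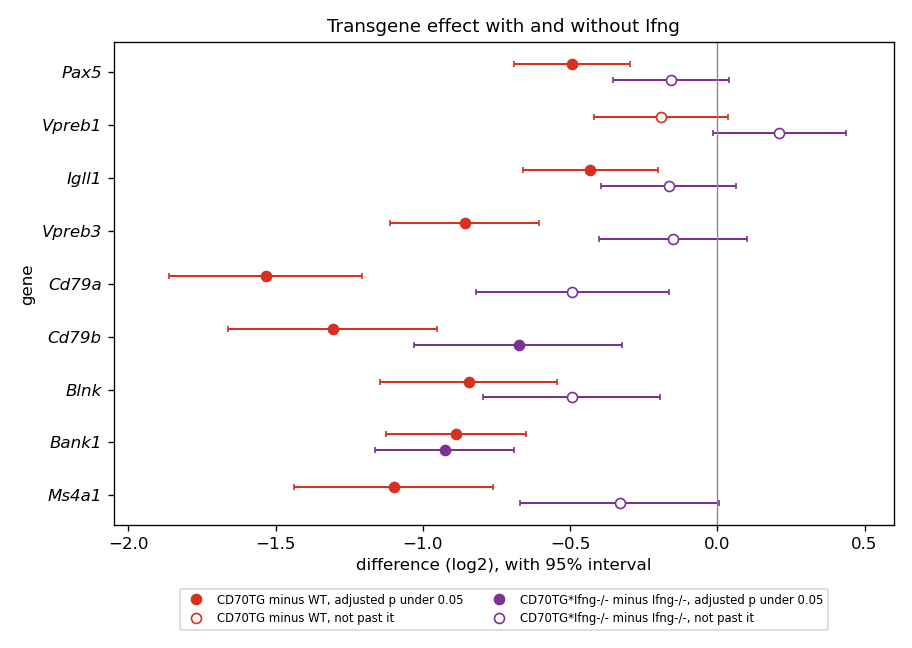
Difference in log2 value between CD70TG and WT (red) and between CD70TG*Ifng-/- and Ifng-/- (purple) for the 9 genes, with 95% intervals and filled points past an adjusted p of 0.05. The pairs of points lie together for Bank1 (-0.89 and -0.93) and farthest apart for Cd79a (-1.53 and -0.49).

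The difference between the 2 transgene effects was tested itself, as the effect in CD70TG against WT minus the effect in CD70TG*Ifng-/- against Ifng-/-. A negative value means a larger fall with Ifng intact. Cd79a (-1.04 ± 0.22, SE, adjusted p = 0.0299) and Vpreb3 (-0.71 ± 0.17, adjusted p = 0.0463) passed, beside 0.281% of all genes with a negative and 1.61% with a positive difference past the threshold. Over all genes these were 56 and 321 calls, which ran from 6 to 97 and from 74 to 614 when 1 array was left out. The 6 further negative values did not pass: Ms4a1 (-0.77 ± 0.22, adjusted p = 0.0913), Cd79b (-0.63 ± 0.23, adjusted p = 0.160), Vpreb1 (-0.40 ± 0.15, adjusted p = 0.161), Blnk (-0.35 ± 0.20), Pax5 (-0.34 ± 0.13) and Igll1 (-0.27 ± 0.15). Bank1 stood at 0.04 ± 0.16, with a 95% interval of -0.30 to 0.37. The interval for Cd79a was -1.505 to -0.58, and no test compared the 2 genes. The call of Cd79a held in 6 of the 12 fits that each left out 1 array (adjusted p from 0.0127 to 0.0909) and was lost without WT 3, CD70TG 1, CD70TG 2, Ifng-/- 3, CD70TG*Ifng-/- 2 or CD70TG*Ifng-/- 3. The call of Vpreb3 held only without WT 1 or WT 2 (adjusted p from 0.0395 to 0.12 over the 12 fits).

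Among transgenic mice, Cd79a and Ms4a1 were higher in the Ifng-/- genotype, and the other 7 genes did not pass. In CD70TG*Ifng-/- against CD70TG all 9 differences were positive, with a median of 0.36 against 0.02 for all genes. The same pair passed as higher, as did 0.426% of all genes, while 0.988% passed as lower. Cd79a was 1.99-fold higher in CD70TG*Ifng-/- (1.00 ± 0.15, adjusted p = 0.00263), and every one of its CD70TG*Ifng-/- values (-0.33 to -0.02) lay above the CD70TG values (-1.33 to -1.01). Ms4a1 was 1.62-fold higher (0.69 ± 0.16, adjusted p = 0.0448), with -0.31 to 0.13 in CD70TG*Ifng-/- and -0.92 to -0.67 in CD70TG. The call of Cd79a was kept in every one of the 12 fits without 1 array. That of Ms4a1 was kept in 4 of them (adjusted p from 0.0141 to 0.261), those without WT 2, WT 3, Ifng-/- 1 or Ifng-/- 2. Blnk passed only without Ifng-/- 2 (adjusted p = 0.0474). In all, 6 of 9 genes had CD70TG*Ifng-/- arrays wholly above the CD70TG arrays, against 9.31% of all genes, and Vpreb1, Igll1 and Bank1 did not. The difference of Bank1 was 0.22 ± 0.11 (adjusted p = 0.486).

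In CD70TG*Ifng-/- against WT all 9 differences were negative (-0.78 to -0.04), with a median of -0.41 against 0.02 for all genes. In limma 7 of the 9 had an unadjusted p under 0.05, as did 3213 of all 19935 genes, and 3 passed after adjustment. For the 6 that did not pass, the test does not show that the WT values were reached. Against WT, Bank1 (-0.67 ± 0.11, adjusted p = 0.00488), Cd79b (-0.78 ± 0.16, adjusted p = 0.0257) and Vpreb3 (-0.50 ± 0.12, adjusted p = 0.046) were lower, as were 1.34% of all genes, and 0 of the 9 was higher, against 0.446% of all genes. The call of Bank1 was kept without any single array. Cd79b was kept in 8 of 12 such fits and lost without WT 2 or any one CD70TG*Ifng-/- array. Vpreb3 was kept in 3, those without WT 1, Ifng-/- 1 or Ifng-/- 2. Cd79a (-0.54 ± 0.15, adjusted p = 0.101) passed only without Ifng-/- 1 or Ifng-/- 2. The CD70TG*Ifng-/- arrays lay wholly below the WT arrays for 6 of the 9 genes and for 8.6% of all genes.

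Loss of Ifng alone left no called difference. In Ifng-/- against WT, 0 of the 9 genes passed in limma, 3 had an unadjusted p under 0.05, and 1 of all 19935 genes passed (0.00502%, higher), with 2759 at that unadjusted p. The 3 genes were Vpreb3 (-0.35 ± 0.12, adjusted p = 0.263), Vpreb1 (-0.25 ± 0.11, adjusted p = 0.331) and Bank1 (0.26 ± 0.11, adjusted p = 0.335). Vpreb3 values were 0.04, 0.014 and 0.16 in Ifng-/- and 0.18, 0.76 and 0.33 in WT, and did not overlap. The Ifng-/- arrays lay wholly below the WT arrays for 2 of the 9 genes, Vpreb3 and Vpreb1, and for 9.17% of all genes. Cd79a (-0.05 ± 0.15), Cd79b (-0.11 ± 0.16) and Ms4a1 (-0.07 ± 0.16) changed to a positive sign without WT 2 or without Ifng-/- 2. This comparison shares its WT arrays with CD70TG against WT and its Ifng-/- arrays with CD70TG*Ifng-/- against Ifng-/-.

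The other genes of the lineage were described from lists of B cell stages and functions, also chosen with earlier results of these data known. Of 12 B lineage transcription factors, 6 fell and 0 rose in CD70TG against WT, with a median of -0.39. They included Spib (-0.90 ± 0.16), Ebf1 (-0.84 ± 0.18), which opens the B lineage programme upstream of Pax5, Irf4 (-0.65 ± 0.12) and the octamer coactivator Pou2af1 (-0.63 ± 0.15), with adjusted p from 0.00402 to 0.016. For 8 of the 12 the CD70TG arrays lay wholly below the WT arrays, against 13.5% of all genes. For 3 of the 12 they lay wholly above, among them Ikzf1 (0.26 ± 0.10, adjusted p = 0.112), and none of these 3 passed. The share of all genes wholly above was not counted. Leaving out 1 array moved the 6 falls to between 2 and 7, with 3 without WT 2 or CD70TG 1 and 2 without CD70TG 2. In CD70TG*Ifng-/- against Ifng-/- 0 of the 12 passed, with Spib at -0.18, Ebf1 at -0.46, Irf4 at -0.03 and Pou2af1 at -0.12. The difference between the 2 effects passed for 0 of the 12 and was nearest for Irf4 (-0.62 ± 0.17, adjusted p = 0.0733).

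Of 12 genes of the pro-B and pre-B stages, 3 fell in CD70TG against WT and all 12 differences were negative (median -0.21). The recombinase gene Rag1 (-0.98 ± 0.21, adjusted p = 0.0115), the interleukin-7 receptor gene Il7r (-0.69 ± 0.13, adjusted p = 0.00481) and Dntt (-0.42 ± 0.12, adjusted p = 0.0366), which encodes terminal transferase, passed. Rag2 (-0.19 ± 0.08, adjusted p = 0.162) and Vpreb2 (-0.09 ± 0.10, adjusted p = 0.634) did not. The 3 falls were 1 to 4 when 1 array was left out, with 1 without CD70TG 2. Without Ifng 0 of the 12 passed (median -0.07), with Rag1 at -0.41 ± 0.21 (adjusted p = 0.472).

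Of 13 genes of the mature B cell surface, Ly6d (-1.20 ± 0.20), Cd180 (-0.45 ± 0.13), H2-Ob (-0.38 ± 0.08) and Fcmr (-0.33 ± 0.09) fell in CD70TG against WT, with adjusted p from 0.00237 to 0.0399 and a list median of -0.18. These 4 falls were 1 without CD70TG 1 and 2 without CD70TG 2 or any one WT array. In CD70TG*Ifng-/- against Ifng-/- 1 of the 13 fell, the Toll-like receptor homologue Cd180 (-0.92 ± 0.13, adjusted p = 0.000747), which macrophages carry too, and 3 fell without Ifng-/- 2. Ly6d had -0.62 ± 0.20 (adjusted p = 0.171).

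Among 19 measured genes of B cell receptor signalling, 7 fell with Ifng intact (median -0.19) and 5 fell without it (median -0.37). Both counts moved when 1 array was left out. The 7 ran from 3 (without WT 3 or CD70TG 1) to 8, with 4 without WT 2 or CD70TG 2. The 5 ran from 1 (without CD70TG*Ifng-/- 3) to 11 (without Ifng-/- 2), with 2 without Ifng-/- 1, CD70TG*Ifng-/- 1 or CD70TG*Ifng-/- 2 and 3 without CD70TG 2 or Ifng-/- 3. Fcrl1, a receptor of B cells, fell by 0.56 ± 0.07 in CD70TG against WT (adjusted p = 0.000357) and by 0.38 ± 0.07 in CD70TG*Ifng-/- against Ifng-/- (adjusted p = 0.00756). The B cell genes Fcrla (-0.75 ± 0.15), Cd72 (-0.69 ± 0.15) and Cd22 (-0.41 ± 0.09) passed with Ifng intact (adjusted p from 0.00696 to 0.0144), and without Ifng they differed by -0.23, -0.37 and -0.33 and did not pass. The inhibitory Fc receptor gene Fcgr2b, which macrophages also express, differed by -0.03 ± 0.13 with Ifng intact and fell by 0.56 ± 0.13 without it (adjusted p = 0.0345). The difference between those 2 effects did not pass (0.52 ± 0.18, adjusted p = 0.144). It was also positive and did not pass for Dapp1 (0.53 ± 0.16, adjusted p = 0.105), Malt1 (0.37 ± 0.14, adjusted p = 0.167) and Cd81 (0.34 ± 0.13, adjusted p = 0.179). Over the 19 genes its median was 0.31, opposite in sign to the -0.40 of the 9 members. It was negative for 8 of the 19, among them the B cell genes Fcrla (-0.52), Cd72 (-0.31), Fcrl1 (-0.17) and Cd22 (-0.08), and passed for 0. The list also holds genes not confined to B cells, such as Fcgr2b. The part of other cells in its median was not tested.

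**Figure D3:**
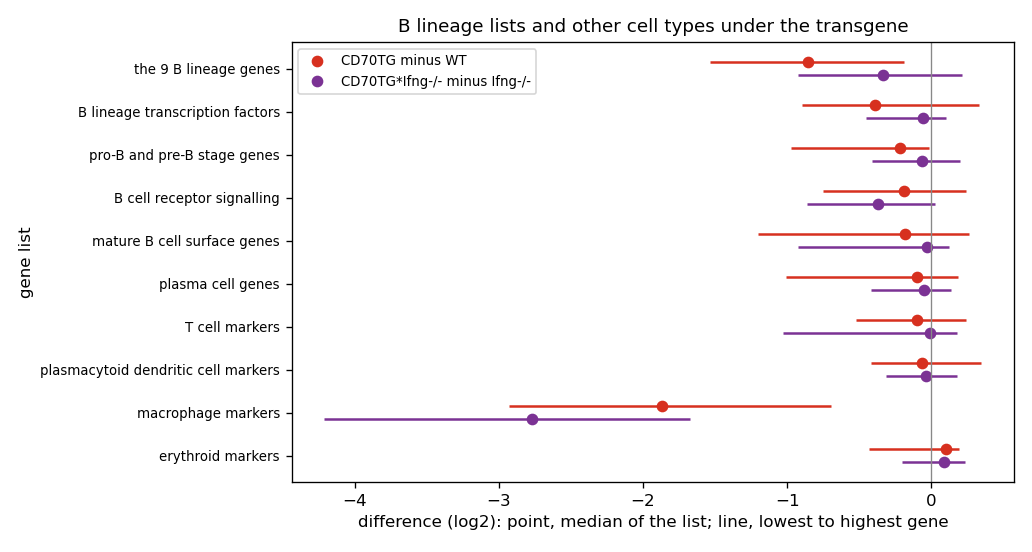
Median (point) and lowest to highest difference (line) of each gene list in CD70TG against WT (red) and in CD70TG*Ifng-/- against Ifng-/- (purple), on the log2 scale. The 9 B lineage genes have medians of -0.86 and -0.33, and the macrophage markers -1.87 and -2.77.

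Markers of other cells moved over the same arrays. All 13 macrophage markers (the C1q chains, Csf1r, Mrc1, Vcam1 and others) fell in both transgene comparisons, with medians of -1.87 with Ifng intact and -2.77 without it. Their mean per array ran from -1.49 to -1.40 in CD70TG*Ifng-/-, from -1.03 to -0.75 in CD70TG, from 1.22 to 1.59 in Ifng-/- and from 0.77 to 1.49 in WT. The mean of the 9 B lineage genes ran from -0.19 to -0.02 in CD70TG*Ifng-/-, from -0.60 to -0.48 in CD70TG, from 0.06 to 0.34 in Ifng-/- and from 0.14 to 0.49 in WT. The macrophage mean was thus lowest in CD70TG*Ifng-/- and the B lineage mean in CD70TG. The part of macrophage RNA in the values of genes such as Blnk and Bank1 was not tested.

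**Figure D4:**
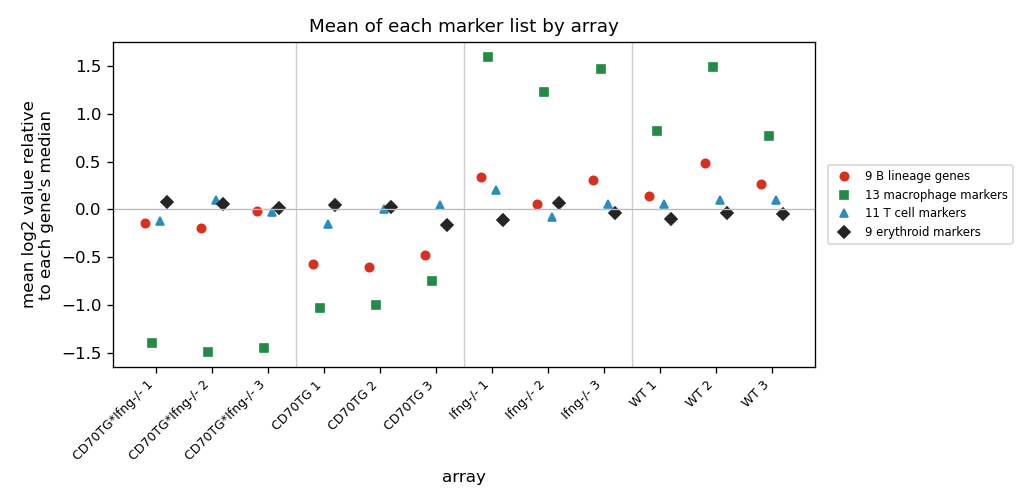
Mean log2 value of 4 gene lists in each of the 12 arrays, relative to each gene's median. The B lineage means (red circles) lie between -0.60 and -0.48 in the CD70TG arrays, and the macrophage means (green squares) between -1.49 and -1.40 in the CD70TG*Ifng-/- arrays.

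Of 11 T cell markers, 1 fell in each transgene comparison, Cd4 (-0.52 ± 0.09 with Ifng intact and -1.03 ± 0.09 without it), and Cd3e differed by -0.20 ± 0.12 and -0.05 ± 0.12. Of the 11 differences 10 were negative with Ifng intact, Cd3g being the highest at 0.24, and 6 were negative without it. The T cell means per array ran from -0.12 to 0.10 in CD70TG*Ifng-/-, from -0.16 to 0.04 in CD70TG, from -0.08 to 0.20 in Ifng-/- and from 0.06 to 0.10 in WT. Of 6 plasmacytoid dendritic cell markers, which share Spib with the B lineage, Ccr9 fell in CD70TG against WT (-0.42 ± 0.10, adjusted p = 0.0218) and Siglech did not pass (-0.22 ± 0.08, adjusted p = 0.111). Bst2 had a positive difference and did not pass either (0.35 ± 0.11, adjusted p = 0.0654), with no overlap between the groups, and Tcf4 (-0.06 ± 0.07) and Cox6a2 (-0.07 ± 0.10) did not pass. The call of Ccr9 was lost without WT 1, WT 2, CD70TG 1 or CD70TG 2. Of 9 erythroid markers 1 fell in CD70TG against WT, Alas2 (-0.43 ± 0.08, adjusted p = 0.00393), while Tfrc, which encodes CD71, differed by -0.02 ± 0.08 (adjusted p = 0.902). Of the 9 differences 3 were negative, and the median was 0.105. Gata1 (0.18, adjusted p = 0.247), Klf1 (0.17, adjusted p = 0.272) and Tal1 (0.19, adjusted p = 0.223) were positive and did not pass. The erythroid means per array ran from 0.01 to 0.08 in CD70TG*Ifng-/-, from -0.16 to 0.05 in CD70TG, from -0.11 to 0.07 in Ifng-/- and from -0.10 to -0.04 in WT. The part of these cells in the results was not tested.

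Over the 12 arrays, 8 of the 9 genes followed the mean of the remaining members closely, with Pearson r from 0.88 (Igll1 and Bank1) to 0.98 (Cd79b), and Vpreb1 did not (r = 0.05). These values are descriptive, since all points share the same 4 groups and arrays. With the group means removed, r was 0.89 for Cd79b, 0.56 for Igll1 and -0.36 for Vpreb1. Outside the 9 genes, the 10 whose values were most like the members' mean were Fcrl1 (r = 0.96), Adipor1, Fcrla, Ly6d, Itgad, Arntl, Fam220a, Pttg1, Tcf7l2 and Gda (r = 0.94). Of these, Fcrl1, Fcrla and Ly6d are on the B lineage lists. With the group means removed, r with the members' mean was 0.93 for Fcrla, 0.91 for Arntl, 0.81 for Ly6d and 0.76 for Fcrl1, against 0.12 for Pttg1 and 0.25 for Fam220a.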

How the data were processed

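Total RNA of CD71-enriched marrow from 12 mice was hybridised to whole-transcript arrays. The deposited log2 values were made by the authors with RMA, per the submitters' processing notes, with no version or annotation stated in the sources used here. Each of the 28815 probe sets has a median of 0 over the arrays in that table, so absolute levels are not held and no filter on dim probe sets could be made. The log base and direction are those of RMA and no header states them. A rounding step of the values gave a level class (at least 8, or 4 to 8, log2), with 4334 probe sets in the higher class.

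Probe sets were named from GEO's platform annotation (21780 with 1 symbol, 1605 with several, 5430 with none) and averaged per gene (19935 genes, 998 with several probe sets). Genes without a probe set of 1 symbol are not analysed here. Groups came from the labels. A model of 4 group means was fitted with limma 3.58.1 (lmFit and eBayes, R 4.3.3), where 8 degrees of freedom were residual and 6.23 came from the prior. All adjusted p-values are limma's, two-sided, with Benjamini-Hochberg adjustment over 19935 genes and a threshold of 0.05. The fit was tested on simulated data. The number of arrays limits the precision.

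Named genes were the 9 members, Cd70, Cd27 and Ifng, up to 4 genes of each list with the smallest p in CD70TG against WT and as many in the difference between the effects, and the 10 genes most like the members' mean. Cd27 differed by -0.01 ± 0.10 in CD70TG against WT. The members and lists were chosen with earlier results of these data known. Alternatives were 3 other scalings, robust moderation, array weights, other summaries of probe sets, fits on the compared groups only, a replicate block and each array left out. Leaving out CD70TG 3 with Ifng-/- 2, and WT 2 with Ifng-/- 2, was added after the data were seen.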

Additional observations from a re-analysis of the deposited data

Results flagged for a closer look

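The transgene effect differed between the Ifng genotypes for 2 of the 9 genes by the test of the difference itself. For Cd79a the effect with Ifng intact minus the effect without it was -1.04 (limma, adjusted p = 0.0299, n = 3 per group), with all 3 CD70TG arrays under all 3 arrays of each other group. For Vpreb3 it was -0.71 (adjusted p = 0.0463), again with all 3 CD70TG arrays under all others. The Vpreb3 value joins 2 differences of like size, neither of which passed in limma by itself. They were -0.35 in Ifng-/- against WT (adjusted p = 0.263) and 0.36 in CD70TG*Ifng-/- against CD70TG (adjusted p = 0.217). The calls of Cd79a and Vpreb3 both lie close to the threshold, and the effect of leaving out arrays is given beside the results.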

How the results depend on the processing

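In CD70TG against WT, the 8 falls were 7 to 8 under every alternative run, and Igll1 was the gene lost. For the smaller comparisons the counts moved. Under quantile normalization, median centring of each array and centring within the level classes, 1 gene instead of 2 passed the test of the difference between the transgene effects (Vpreb3 was lost), and under the last 2 of these 1 instead of 2 was higher in CD70TG*Ifng-/- against CD70TG. No scaling moved the median of all genes by over 0.1. With robust moderation 1 gene instead of 2 fell in CD70TG*Ifng-/- against Ifng-/-. With array weights 4 fell there, 8 were higher in CD70TG*Ifng-/- against CD70TG, 5 were lower in CD70TG*Ifng-/- against WT and 6 passed for the difference between the effects. With the replicate block these counts were 1, 1, 1 and 0 (of 18 same-numbered pairs of arrays, 6 had deviations from their group means correlated above 0.1, range -0.40 to 0.31, and 2 of 12 arrays correlated best with their own number, so the numbers were not taken to pair the mice), and with the fit on probe sets 1, 1, 1 and 1. With only the 6 compared arrays 4 genes were higher in CD70TG*Ifng-/- against CD70TG. The causes were not tested. Leaving out 1 array gave 7 to 8 falls in CD70TG against WT, 1 to 4 in CD70TG*Ifng-/- against Ifng-/-, 1 to 4 in CD70TG*Ifng-/- against WT, 1 to 3 rises in CD70TG*Ifng-/- against CD70TG and 0 to 2 genes for the difference. Without CD70TG 3 and Ifng-/- 2 the counts were 4 falls in CD70TG*Ifng-/- against Ifng-/-, 1 rise in CD70TG*Ifng-/- against CD70TG and 1 for the difference, and without WT 2 and Ifng-/- 2 they were 4, 5 and 0. Bank1 changed sign for the difference between the effects under quantile normalization (-0.005), with array weights (-0.03) and without 1 array (from -0.045 to 0.152 over the 12 fits). In Ifng-/- against WT, where none of these genes passed, leaving out 1 array gave -0.198 to 0.115 for Cd79a, -0.217 to 0.096 for Cd79b, -0.207 to 0.116 for Ms4a1 and -0.142 to 0.041 for Igll1. Without CD70TG 3 and Ifng-/- 2 these were 0.115, 0.058, 0.041 and 0.041, and without WT 2 and Ifng-/- 2 they were 0.180, 0.262, 0.231 and 0.046, with Pax5 at 0.012. Vpreb1 in CD70TG*Ifng-/- against WT ran from -0.113 to 0.045 without 1 array.
Of all genes, 75.3% of the calls in CD70TG against WT were higher, 63.2% after quantile normalization and 65.2% with centring within the level classes. Leaving out 1 array gave 303 to 713 lower and 511 to 2017 higher, against 539 and 1640 in all arrays. In the other comparisons leaving out 1 array gave 292 to 744 lower and 5 to 124 higher (468 and 31 in all arrays) for CD70TG*Ifng-/- against Ifng-/-, 105 to 283 and 31 to 102 (197 and 85) for CD70TG*Ifng-/- against CD70TG, and 152 to 488 and 7 to 198 (268 and 89) for CD70TG*Ifng-/- against WT. Signal over background cannot be given from centred values.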

Other observations

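Genes of antibody-making cells were described from 2 short lists. The immunoglobulin heavy chain genes Ighm (-0.47 ± 0.08, SE, n = 3 per group, limma adjusted p = 0.00294) and Igha (-0.54 ± 0.12, adjusted p = 0.0143) fell in CD70TG against WT, and in CD70TG*Ifng-/- against Ifng-/- they differed by -0.11 ± 0.08 and -0.07 ± 0.12 and did not pass. The 2 calls were 1 without WT 1, WT 2, CD70TG 1 or CD70TG 2. Of 8 plasma cell genes 1 fell in CD70TG against WT, Jchain (-1.01 ± 0.18, adjusted p = 0.00349), which encodes the joining chain of secreted IgM and IgA. Jchain was also lower in CD70TG*Ifng-/- than in WT (-0.81 ± 0.18, adjusted p = 0.0339) with values of 0.02, -0.09 and -0.10 in CD70TG*Ifng-/- and a split of 1.05, 1.06 and 0.15 in WT. That call was lost without WT 1, WT 2, CD70TG 2, Ifng-/- 3 or any one CD70TG*Ifng-/- array. Without the transgene, Jchain lay wholly lower in Ifng-/- than in WT and did not pass (-0.68 ± 0.18, adjusted p = 0.229), and it differed by -0.14 ± 0.18 between CD70TG*Ifng-/- and Ifng-/- (adjusted p = 0.797). The plasma cell regulator Xbp1 (0.13 ± 0.11, adjusted p = 0.497), the folding factor Mzb1 (-0.25 ± 0.08, adjusted p = 0.0703) and the receptor gene Tnfrsf17 (-0.12 ± 0.09, adjusted p = 0.426) did not pass in CD70TG against WT.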
